A study of Mus musculus with 7 samples.

Results

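The mitosis and spindle set holds 36 genes out of the 56854 gene identifiers counted in 7 RNA sequencing libraries of mouse shoulder joints, each taken whole after repair of the rotator cuff. The 36 genes were taken as a fixed list of symbols: the cyclins, kinases and ubiquitin ligase factors that drive a cell through mitosis, the proteins of the centromere, kinetochore and spindle, and Mki67 and Top2a, which mark dividing cells. All 36 symbols had 1 identifier each, 35 had enough counts to be tested, and Prc1, a bundler of spindle microtubules, was listed at 0 in all 7 libraries. The other 35 had at least 65 counts in every library, so the 0 of Prc1 was not read as absence of its RNA.

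Each library came from 1 mouse. The groups were wild type (n = 3) and Tnc-/- (n = 4), mice labelled as lacking both copies of the gene for Tenascin C, a glycoprotein of the extracellular matrix. In both groups the supraspinatus tendon of the left shoulder had been repaired, and joints were taken 2 weeks later. Strain, age and sex are not given in the sources used here, nor is the way the Tnc allele was made. No joint without repair was among the libraries.

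Mitosis is driven by Cdk1 bound to A- and B-type cyclins. Polo and Aurora kinases build the spindle, the kinetochore ties each chromosome to it, and the spindle checkpoint holds back Cdc20 until every chromosome is attached. Cdc20 then turns on the anaphase-promoting complex, which marks cyclin B and other proteins for destruction. Most of these genes are transcribed late in the cell cycle and are nearly silent in resting cells, so in a tissue their RNA tracks dividing cells. In a joint with its bone these include marrow precursors of red cells and granulocytes as well as fibroblasts and other cells of a repair.

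Gene counts per library ran from 13464057 to 18503833 in wild type and from 19250322 to 28191101 in Tnc-/-. The targeted gene Tnc had 8137, 4394 and 5386 counts in wild type and 902, 698, 712 and 1051 counts in Tnc-/-, and its log2 fold change was -3.08 (SE 0.21; adjusted p = 2.8e-04 by edgeR). Values of single libraries stand in the order of the replicate numbers throughout. Markers of the labelled tissue were present in all 7 libraries: Acta1 of skeletal muscle at 8953 CPM or more, Tnmd of tendon at 182 CPM or more, Col2a1 of cartilage at 363 CPM or more and Bglap of bone at 179.8 CPM or more. CPM are counts scaled to library size, here after TMM, a correction for library composition. Scx of tendon and Col10a1 of the growth plate were listed at 0 in all 7. Identifiers differed between the files: 126 stood in those of wild type and not of Tnc-/-, and 87 the other way round. Rows that name no gene also stood in the Tnc-/- files alone. Whether the counting differed in other ways is not given in the sources used here, and any such difference cannot be told apart from the genotype. Wild-type libraries 2 and 3 stood apart in a further way: smell and pheromone receptor genes, 1514 in number and not known as genes of the joint, summed to 81.0, 1259 and 881 CPM in wild type, and to no more than 42.0 CPM in any Tnc-/- library.

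Of 35 members tested, 14 rose in Tnc-/- and 0 fell (edgeR's quasi-likelihood test, adjusted p under 0.05 over all 17791 genes), where 10.3% of all genes tested were called higher and 18.7% lower. The 14 were Mki67, Ccnb2, Cdk1, Cdca3, Plk1, Bub1b, Aurkb, Cdca8, Cenpa, Cenpf, Kif4, Tpx2, Cdc20 and Ube2c. At an unadjusted p under 0.05 there were 20, of which Melk lay below 0. The median log2 fold change of the 35 was 0.72, or 1.65-fold, beside -9.0e-04 over all genes tested. It was above 0 for 32 members and below 0 for Melk, Ttk and Ect2. In 16 members every Tnc-/- library was higher than every wild-type library, where 17.7% of all genes tested did so, and 0 members were separate the other way (17.4% of all genes). These 16 were the called genes other than Kif4 plus Top2a, Birc5 and Cenpe. In bulk tissue, fewer cells of a type and less RNA per cell cannot be told apart.

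The set level, the mean of log2(CPM + 0.5) over the 36 genes with CPM taken from raw counts and library totals, was 4.69, 4.27 and 4.51 in wild-type libraries 1 to 3. It was 5.47, 4.68, 4.91 and 4.69 in Tnc-/- libraries 1 to 4. The groups overlapped on this scale, since wild-type library 1 lay just above Tnc-/- libraries 2 and 4. The means were 4.49 ± 0.21 (SD, n = 3) and 4.94 ± 0.37 (SD, n = 4), a difference of 0.45. With TMM-scaled CPM the difference was 0.66, from 4.68, 4.11 and 4.34 to 5.53, 4.79, 5.02 and 4.81, and the groups did not overlap, with wild-type library 1 again the nearest to Tnc-/-.

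**Figure D1:**
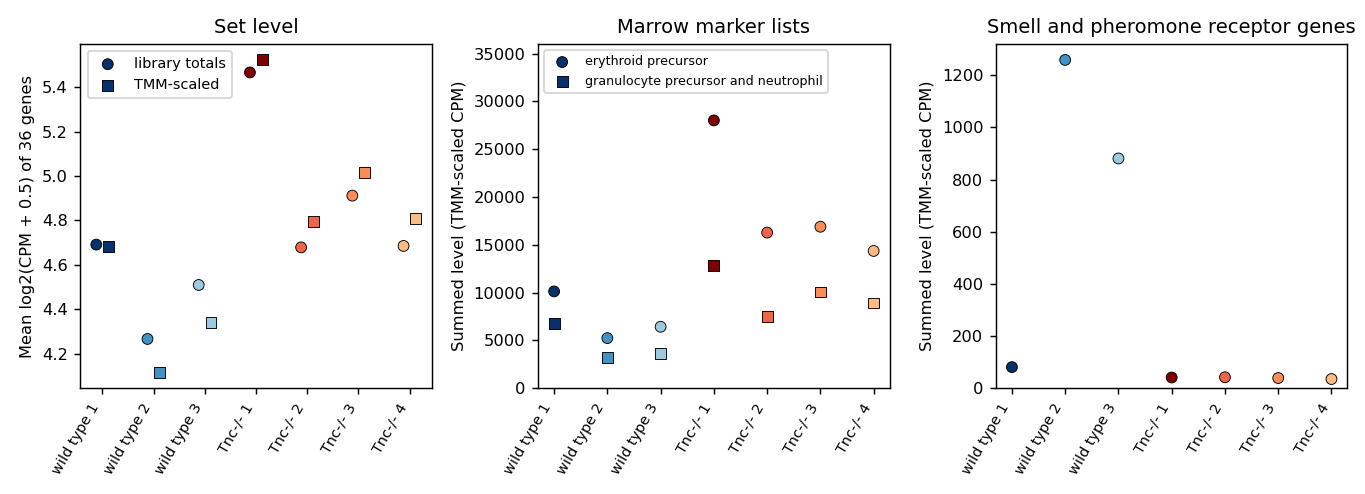
Set level of the 36 genes per library (left; mean log2(CPM + 0.5), circles by library totals, squares TMM-scaled), summed TMM-scaled CPM of the erythroid and granulocyte marker lists (middle) and of 1514 smell and pheromone receptor genes (right). Blue points are the 3 wild-type and red points the 4 Tnc-/- libraries; Tnc-/- library 1 is highest and wild-type library 1 the highest of its group in the left and middle panels, while receptor genes are at 1259 and 881 CPM in wild-type libraries 2 and 3.

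The series text names DESeq2 with Bonferroni adjustment, which called 0 members (19 at an unadjusted p under 0.05), where 1.04% of all genes were called higher. With Benjamini-Hochberg adjustment DESeq2 called 15 members higher and Melk lower, beside 8.45% of all genes higher and 23.8% lower. The DESeq2 shares are taken over 29121 genes with any count, and the edgeR shares with all libraries over the 17791 genes that passed a filter on low counts. Scaling to library totals moved the median of all genes to -0.24 and that of the members to 0.50, with 951 of all genes (5.35%) called higher and 4541 (25.5%) lower in place of 1830 and 3329. Of the members, 6 were then called higher and Melk lower.

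The count of calls changed with nearly every choice of libraries. With wild-type library 1 as the only wild-type library, 0 members were called (edgeR, the spread taken from the Tnc-/- libraries; 8 at an unadjusted p under 0.05), where 2.53% of all genes were called higher. The median log2 fold change was then 0.41, beside 0.027 over all genes, and above 0 for 34 of 35 members, with Nusap1 below. Without wild-type library 1, 26 members rose and Melk and Ttk fell, where 24.3% of all genes were called higher and 39.9% lower, and the median was 1.13. Without wild-type library 3 there were 0 calls (edgeR; 15 members at an unadjusted p under 0.05), where 3.27% of all genes were called higher, while the median was 0.70. Without library 2 there were 4 calls, where 5.54% of all genes were called higher, and the median was 0.54. With the receptor sum of each library as a covariate, 0 members were called (edgeR, smallest adjusted p = 0.148, with 2 members under 0.05 before adjustment), where 1.14% of all genes were called higher. The median log2 fold change was 0.28 in that fit, beside 0.042 over all genes. Every wild-type library had a higher receptor sum than any Tnc-/- library, so that fit cannot tell the background from the genotype.

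Leaving out any 1 Tnc-/- library also lowered the count. Without library 1, 3 or 4, the members called were Ccnb2, Cdca3, Plk1 and Cdc20, where 4.82%, 3.91% and 5.14% of all genes were called higher. Without library 2 there were 6, where 5.73% of all genes were called higher. The median was 0.51 without library 1, 0.79 without library 2, 0.73 without library 3 and 0.82 without library 4. Tnc-/- library 1 held the highest level of all 7 libraries in 32 of 35 members, and its receptor sum of 41.2 CPM lay between those of Tnc-/- libraries 2 and 3. Ccnb2, Plk1 and Cdc20 were the members called most often, in 6 of 7 fits that left out a library; each missed the threshold without wild-type library 3, with adjusted p (edgeR) of 0.0596, 0.0534 and 0.052.

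**Figure D2:**
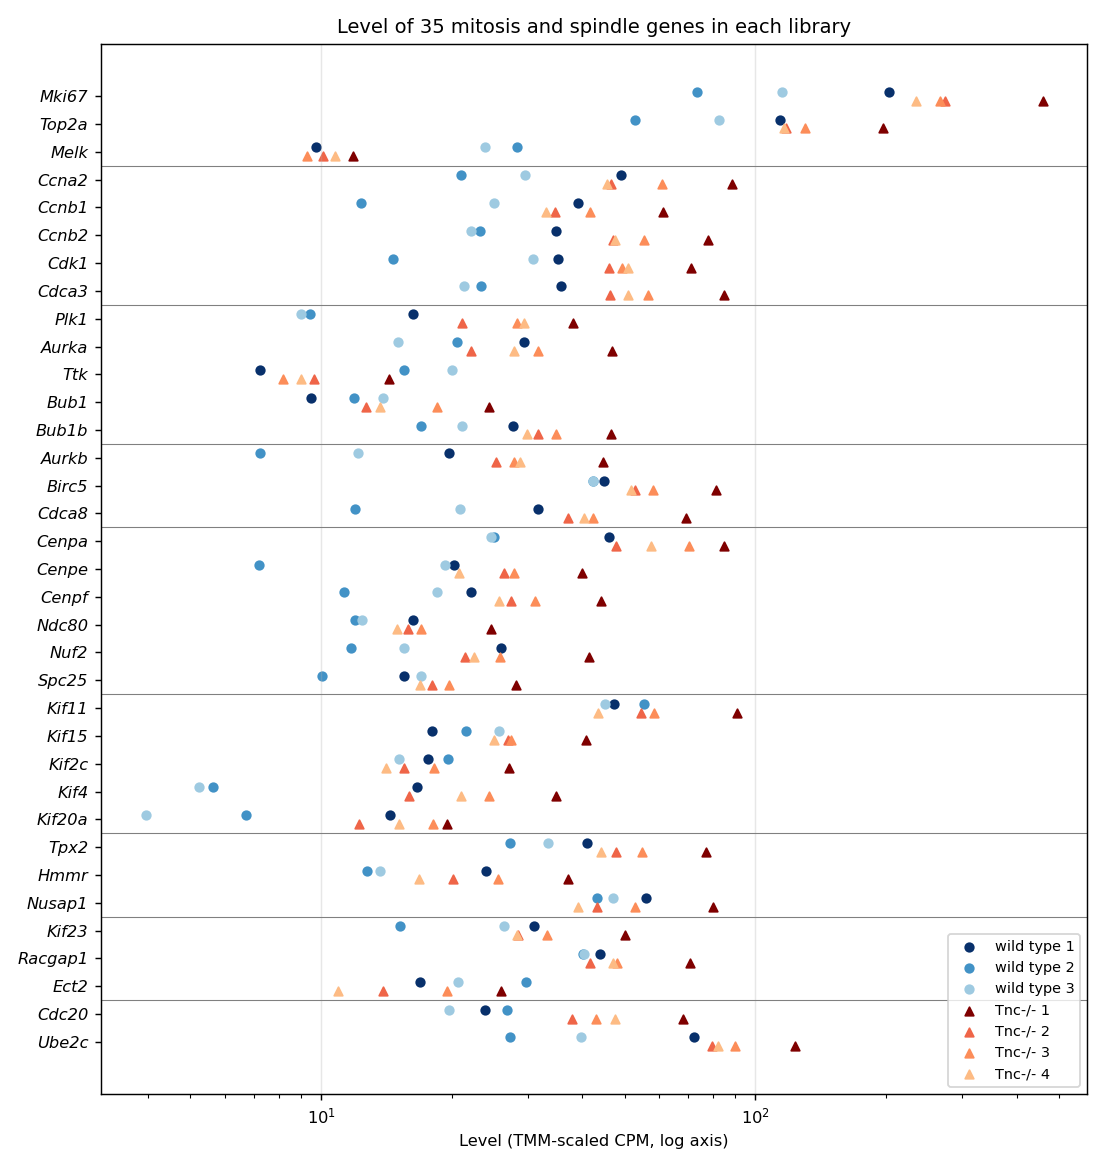
Level of each of the 35 tested members in each library, in TMM-scaled CPM on a log axis. Circles are the 3 wild-type and triangles the 4 Tnc-/- libraries; grey lines separate the roles, and Tnc-/- library 1 (dark red) is the rightmost point in 32 rows.

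Promoters of the members shared short sequences that the list did not use. Promoters of late cell cycle genes are known for the cell cycle homology region, a site of the MuvB complexes, and for CCAAT boxes, bound by NF-Y. RefSeq promoters (GRCm38.p6, 250 bases before to 50 after the start of the gene) were found for 32 of 36 members, all but Ccna2, Aurkb, Kif20a and Tpx2. They were searched on both strands for the homology region, spelled TTTGAA and read as TTCAAA on the opposite strand. Its other spelling was TTCGAA, the same on both strands. The CCAAT box reads ATTGG on the opposite strand. TTTGAA or TTCGAA was in 26 of 32 promoters (81.3%), against 21.7% of the 27025 genes with a promoter. CCAAT was in 25 of 32 (78.1%), against 41.1%. Both were in 23 of 32 (71.9%), against 8.61%. In 1 case a homology match overlapped a CCAAT match. The homology match reached past the start of the gene in 18 members, and in the 18 members with more than 1 CCAAT before the start the smallest spacing had a median of 32 bases. These matches describe letters and were not tested as sites.

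The stretches below are those of the members called in the most fits, Cdc20, Ccnb2, Plk1 and Cdca3. Each gives the 150 bases before the start and, where the homology region lies past the start, 26 bases around it, 5′ to 3′ on the strand of the gene, with motifs that lie whole within the stretch, on either strand, in capitals.
Cdc20 promoter, chr4:118437344-118437493, - strand: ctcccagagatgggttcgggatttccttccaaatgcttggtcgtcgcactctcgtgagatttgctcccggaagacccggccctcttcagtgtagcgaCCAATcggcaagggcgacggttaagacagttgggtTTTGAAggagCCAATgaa
Ccnb2 promoter, chr9:70421555-70421704, - strand: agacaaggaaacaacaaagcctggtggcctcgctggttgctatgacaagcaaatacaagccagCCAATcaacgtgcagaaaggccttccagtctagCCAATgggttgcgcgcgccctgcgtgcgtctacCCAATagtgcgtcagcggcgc
Ccnb2 site, chr9:70421535-70421560, - strand: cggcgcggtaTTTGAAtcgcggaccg
Plk1 promoter, chr7:122159285-122159434, + strand: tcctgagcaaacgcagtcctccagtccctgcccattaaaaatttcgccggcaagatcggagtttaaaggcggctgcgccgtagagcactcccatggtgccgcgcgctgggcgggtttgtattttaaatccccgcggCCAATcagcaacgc
Plk1 site, chr7:122159455-122159480, + strand: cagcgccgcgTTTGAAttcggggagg
Cdca3 promoter, chr6:124830026-124830175, + strand: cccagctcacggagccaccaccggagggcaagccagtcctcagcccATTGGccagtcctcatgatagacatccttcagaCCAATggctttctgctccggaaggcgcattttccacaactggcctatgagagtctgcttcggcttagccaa
Cdca3 site, chr6:124830196-124830221, + strand: tggagggaagTTTGAAactccgggct
Cdc20 carries TTTGAA at 18 bases before the start, between a pair of CCAAT boxes. In Ccnb2 it begins at base 5 of the transcript, after 3 CCAAT boxes with 33 bases as the smallest spacing, and a further TTTGAA lies 167 bases before the start, outside the stretch. It begins in Plk1 and Cdca3 at base 31. All 12 called members with a promoter held both motifs in the 300 bases, against 11 of the other 20, which include the untested Prc1 with both. In the 250 bases before the start alone, both were in 6 of the 12 and 4 of the 20, or 31.3% of the 32 against 7.00% of genes, and the homology region was in 37.5% of the 32 against 19.6%. Birc5, Melk, Nuf2 and Nusap1, none of them called, held neither in these 300 bases.

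Mki67, Top2a and Melk stand for proliferation in general, and 1 of the 3 rose. Mki67, whose protein coats chromosomes in dividing cells, was at 203, 73.2 and 115 CPM in wild type and at 459, 274, 267 and 234 CPM in Tnc-/-. The groups did not overlap, though wild-type library 1 was nearer to Tnc-/- library 4 than to wild-type library 3. The means were 130.5 ± 66.1 CPM (SD, n = 3) and 309 ± 102 CPM (SD, n = 4), and the log2 fold change was 1.24 (SE 0.37; adjusted p = 0.0346 by edgeR). Top2a, the topoisomerase that untangles sister chromosomes, was at 114, 53.0 and 82.6 CPM and at 197, 118, 130.2 and 116 CPM. Its groups came close without overlap, and it missed the threshold (0.75, SE 0.28; adjusted p = 0.0748). Melk, a kinase of dividing progenitors, went the other way at 9.71, 28.3 and 23.9 CPM in wild type against 11.9, 10.1, 9.29 and 10.8 CPM in Tnc-/- (-0.97, SE 0.34; adjusted p = 0.0595). Wild-type library 1 lay within the Tnc-/- range for Melk, and libraries 2 and 3 lay above it.

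Of the cyclins, Cdk1 and Cdca3, 3 of 5 rose. Ccnb2, a B-type cyclin, was at 34.8, 23.2 and 22.2 CPM in wild type and at 77.7, 47.1, 55.4 and 47.5 CPM in Tnc-/-. All 4 Tnc-/- libraries lay above wild type, and the log2 fold change was 1.09 (SE 0.24; adjusted p = 0.0122 by edgeR). Cdca3, a trigger of mitotic entry that is itself degraded after anaphase, was at 35.7, 23.3 and 21.3 CPM and at 84.7, 46.4, 56.5 and 50.8 CPM. The groups did not overlap (1.15, SE 0.26; adjusted p = 0.0139). Cdk1, the kinase itself, rose by 1.02 (SE 0.30; adjusted p = 0.0333), with 14.6 to 35.2 CPM in wild type and 46.1 to 71.2 CPM in Tnc-/-. Ccnb1, the cyclin that is partner to Cdk1 at entry, was at 39.0, 12.4 and 25.0 CPM and at 61.2, 34.5, 41.6 and 33.0 CPM, so wild-type library 1 lay above Tnc-/- libraries 2 and 4. Ccnb1 did not pass (0.74, SE 0.37; adjusted p = 0.164). Ccna2, the A-type cyclin of S phase and early mitosis, had 0.86 (SE 0.33; adjusted p = 0.0799).

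Among the mitotic kinases and checkpoint genes, 2 of 5 rose. Plk1, the polo-like kinase of entry, centrosomes and cytokinesis, was at 16.3, 9.44 and 8.99 CPM in wild type and at 38.1, 21.1, 28.3 and 29.3 CPM in Tnc-/-. The mean went from 11.6 ± 4.08 (SD, n = 3) to 29.2 ± 6.98 CPM (SD, n = 4) with no overlap, and the log2 fold change was 1.33 (SE 0.28; adjusted p = 0.0113 by edgeR). Bub1b, the checkpoint protein BubR1, was at 27.6, 16.9 and 21.1 CPM and at 46.5, 31.6, 34.7 and 29.8 CPM. Its groups were also separate, by a smaller step (0.70, SE 0.22; adjusted p = 0.0449). Ttk, the checkpoint kinase Mps1, was at 7.25, 15.5 and 20.05 CPM and at 14.3, 9.64, 8.17 and 8.997 CPM. Wild-type library 1 was the lowest and library 3 the highest of all 7 for Ttk, and its log2 fold change of -0.47 (SE 0.37) did not pass (adjusted p = 0.365). Aurka, the kinase of the spindle poles, and Bub1, a checkpoint kinase at the kinetochore, had log2 fold changes of 0.57 and 0.56 with adjusted p of 0.188 and 0.166.

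The chromosomal passenger complex corrects faulty attachments and later guides cytokinesis, and 2 of its 3 listed genes rose. Aurkb, its kinase, was at 19.8, 7.24 and 12.1 CPM in wild type and at 44.5, 25.3, 27.9 and 28.7 CPM in Tnc-/- (1.27, SE 0.35; edgeR, adjusted p = 0.0264). Cdca8, the scaffold Borealin, was at 31.6, 11.96 and 20.8 CPM and at 69.3, 37.0, 42.2 and 40.4 CPM (1.14, SE 0.34; adjusted p = 0.0381). In both, wild-type library 2 was lowest and Tnc-/- library 1 highest, with no overlap between the groups. Birc5, or Survivin, was at 44.8, 42.4 and 42.3 CPM and at 81.1, 52.9, 58.1 and 51.7 CPM. Its wild-type libraries were closer together than those of any other member (43.1 ± 1.40 CPM, SD, n = 3) and lay below all Tnc-/- libraries, but the log2 fold change of 0.50 (SE 0.17) missed the threshold (adjusted p = 0.0611).

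Of 6 centromere and kinetochore genes, 2 rose. Cenpa, the histone H3 variant of centromeres, was at 46.1, 25.1 and 24.6 CPM in wild type and at 84.9, 47.8, 70.3 and 57.6 CPM in Tnc-/- (1.03, SE 0.28; edgeR, adjusted p = 0.0256). Wild-type library 1 lay just below Tnc-/- library 2. Cenpf, a large protein of the outer kinetochore and nuclear matrix, was at 22.2, 11.3 and 18.5 CPM and at 44.1, 27.4, 31.1 and 25.6 CPM (0.89, SE 0.28; adjusted p = 0.042). Ndc80, the subunit that grips microtubules, was at 16.3, 11.96 and 12.4 CPM and at 24.6, 15.8, 16.96 and 14.96 CPM, and did not pass (0.42, SE 0.24; adjusted p = 0.224). For Ndc80, as for its partners Nuf2 and Spc25, at least 1 wild-type library lay above a Tnc-/- library; their log2 fold changes were 0.65 and 0.54 with adjusted p of 0.167 and 0.148. Cenpe, the kinesin of the kinetochore, had 0.88 (SE 0.37; adjusted p = 0.103), with groups that touched but did not overlap (20.3 CPM in wild-type library 1, 20.8 CPM in Tnc-/- library 4).

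Of 5 kinesin motors, 1 rose, and in each of the 5 the groups overlapped. Kif4, a chromosome-bound kinesin, was at 16.6, 5.65 and 5.22 CPM in wild type and at 34.7, 15.9, 24.4 and 21.03 CPM in Tnc-/-. Its log2 fold change, 1.39 (SE 0.45; adjusted p = 0.0495 by edgeR), was the largest of the 35 and rested on wild-type libraries 2 and 3; with wild-type library 1 alone it was 0.53. Kif20a, a kinesin of cytokinesis, was at 14.4, 6.71 and 3.95 CPM and at 19.5, 12.3, 18.1 and 15.1 CPM (0.96, SE 0.42; adjusted p = 0.117). Wild-type library 1 lay above Tnc-/- library 2 for both. Kif2c, which takes microtubules apart at centromeres, was at 17.6, 19.6 and 15.1 CPM and at 27.04, 15.5, 18.2 and 14.1 CPM, with groups fully interleaved (0.10, SE 0.25; adjusted p = 0.789). Kif11 and Kif15, which push the spindle poles apart, had 0.33 and 0.46 with adjusted p of 0.323 and 0.139.

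Of the spindle assembly genes, 1 of 3 tested rose. Tpx2, which activates Aurka on the spindle, was at 41.1, 27.2 and 33.2 CPM in wild type and at 76.8, 47.9, 54.9 and 44.1 CPM in Tnc-/- (0.72, SE 0.23; edgeR, adjusted p = 0.0414), without overlap. Hmmr, a centrosome protein that also binds hyaluronan, was at 24.0, 12.8 and 13.7 CPM and at 36.9, 20.1, 25.6 and 16.8 CPM (0.56, SE 0.33; adjusted p = 0.223). Nusap1, a microtubule-bundling protein, was at 56.1, 43.3 and 47.0 CPM and at 79.9, 43.2, 52.8 and 39.0 CPM (0.14, SE 0.24; adjusted p = 0.694). The high value of Hmmr and Nusap1 was Tnc-/- library 1, and the other libraries of both groups were interleaved.

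None of the 3 cytokinesis genes passed (edgeR; 0 also at an unadjusted p under 0.05). Kif23, a motor of the central spindle, was at 31.0, 15.2 and 26.4 CPM in wild type and at 50.1, 28.4, 33.1 and 28.2 CPM in Tnc-/- (0.53, SE 0.29; adjusted p = 0.198). Racgap1, its partner in the centralspindlin complex, was at 44.0, 40.2 and 40.4 CPM and at 70.8, 41.6, 48.1 and 47.0 CPM (0.32, SE 0.19; adjusted p = 0.229). In both, wild-type library 1 lay among the Tnc-/- libraries. Ect2, which switches on RhoA for the contractile ring, was at 16.9, 29.7 and 20.7 CPM and at 26.001, 13.9, 19.5 and 10.9 CPM, with the groups interleaved (-0.35, SE 0.32; adjusted p = 0.444).

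Both genes of anaphase ubiquitination rose. Cdc20, the activator of the anaphase-promoting complex, was at 23.9, 26.8 and 19.7 CPM in wild type and at 68.1, 37.8, 43.0 and 47.5 CPM in Tnc-/-. The groups were well separated, and of the 9 members spanning at most 10 kb Cdc20 was the 1 for which wild-type library 1 was not the highest of its group. The means were 23.5 ± 3.54 CPM (SD, n = 3) and 49.1 ± 13.3 CPM (SD, n = 4), and the log2 fold change was 1.07 (SE 0.22; adjusted p = 0.0108 by edgeR). The size was 1.04 with wild-type library 1 alone (adjusted p = 0.0648) and 1.08 with the receptor covariate (adjusted p = 0.148). Ube2c, the ubiquitin-conjugating enzyme of the complex, was at 72.2, 27.2 and 39.6 CPM and at 123, 79.6, 89.8 and 81.9 CPM (1.01, SE 0.32; adjusted p = 0.0423). With wild-type library 1 alone Ube2c was at 0.37, and with the receptor covariate at 0.046.

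**Figure D3:**
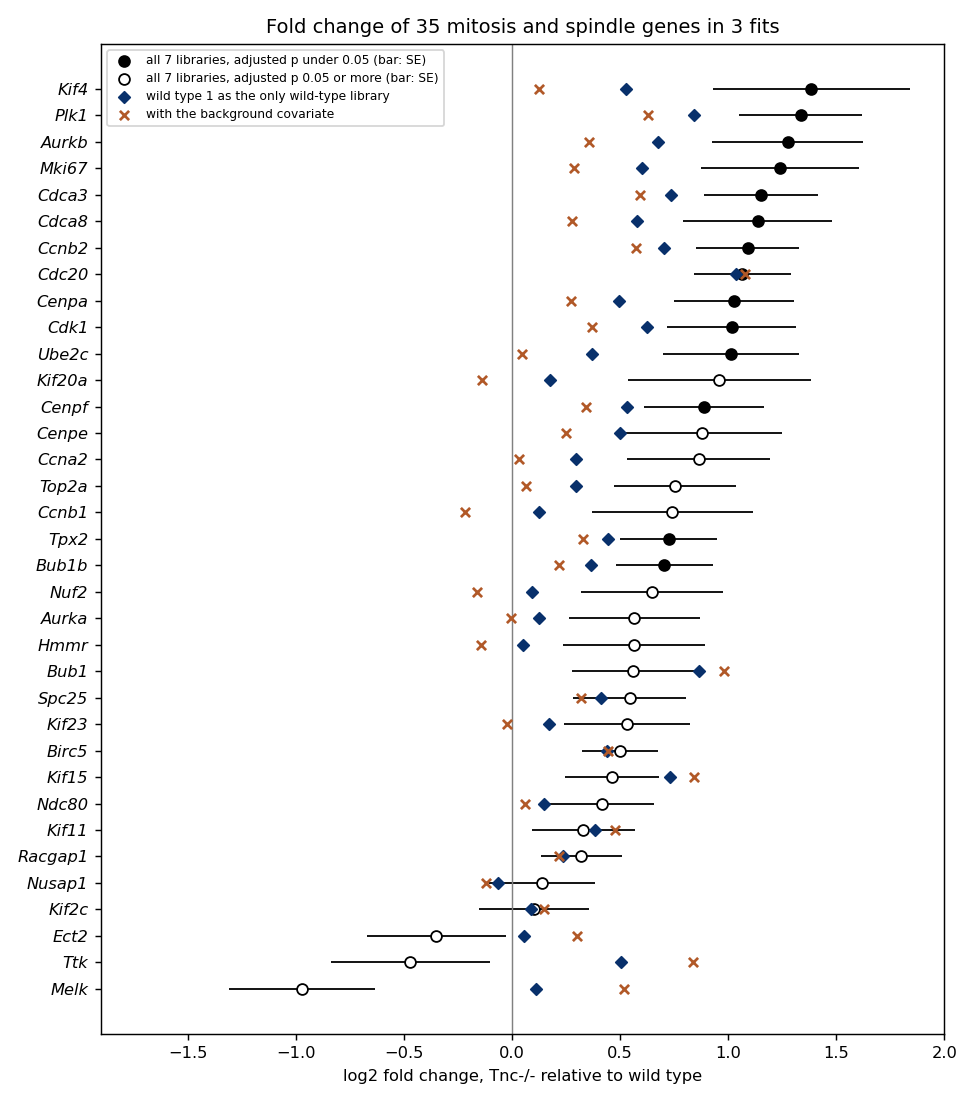
Log2 fold change of each tested member, Tnc-/- relative to wild type, with its SE (bars) in all 7 libraries, beside the fold change with wild-type library 1 as the only wild-type library (blue diamonds) and with the receptor sum as a covariate (crosses). Filled circles are the 14 members with an adjusted p under 0.05; Cdc20 stays at 1.04 to 1.08 in all 3 fits, while Ube2c moves from 1.01 to 0.046.

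Members differed in how the wild-type libraries spread. Gene span is the length of a gene, introns included, in GENCODE M21. For the 9 members spanning at most 10 kb, the median log2 ratio of wild-type library 2 to library 1 was -1.10, and it was -0.71 for the 8 members at 10 to 30 kb, -0.58 for the 10 at 30 to 45 kb and -0.18 for the 8 over 45 kb. Over all genes tested it went from -0.30 to -0.22, 0.013 and 0.72 in the same classes. The 8 members above library 1 in library 2 were Melk, Ttk, Bub1, Kif11, Kif15, Kif2c, Ect2 and Cdc20. Apart from Cdc20 (4.45 kb) they spanned 23.0 kb or more, with Melk at 63.8 kb, Ttk at 37.7 kb and Ect2 at 56.7 kb. Span did not sort all members, since Kif4 spans 101 kb and Cenpe 61.1 kb, and both were lower in wild-type libraries 2 and 3 than in library 1. The median log2 fold change of the members was 1.01, 1.05, 0.55 and 0.59 in the 4 classes, and that of all genes 0.29, 0.15, -0.059 and -0.49. The part of the receptor-rich background in the members' fold changes was not tested, and the covariate fit cannot tell that background from the genotype.

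**Figure D4:**
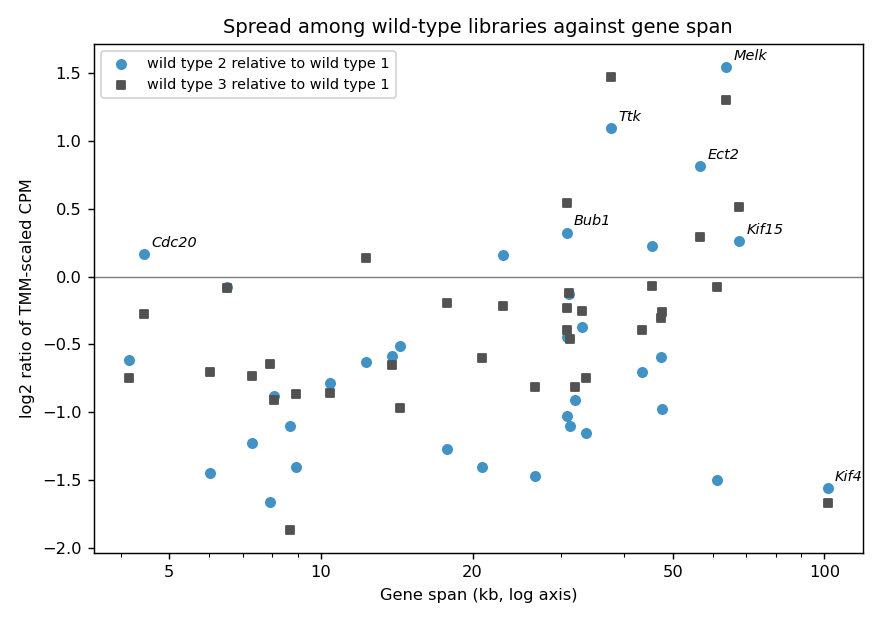
Log2 ratio of TMM-scaled CPM of wild-type library 2 (circles) and library 3 (squares) to wild-type library 1 for the 35 tested members, against gene span in kb on a log axis. Most members lie below 0, with medians of -1.10 up to 10 kb and -0.18 over 45 kb for library 2; Melk, Ttk, Ect2, Bub1 and Kif15 lie above 0 in both.

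Levels between genes were compared per kb of exon (GENCODE M21, all exons of a gene merged). In Tnc-/- the highest means were Ccnb2 at 37.2 CPM per kb, Ube2c at 36.02, Mki67 at 30.7 and Cdc20 at 26.3, and the lowest were Cenpf at 2.08 and Ttk at 2.09. In wild type the highest were Ube2c at 17.8 CPM per kb, Ccnb2 at 17.5, Mki67 at 13.0 and Birc5 at 12.7, and the lowest was Cenpf at 1.12. Exons of 10 members overlap another gene in that annotation, over up to 29.3% of their length in Kif20a, and it is not stated whether the counting used strand. Reads that fall on more than 1 gene made up 11.4 to 11.6% of the reads listed in the Tnc-/- files. Of the 26 members with no overlap, 9 were called higher.

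The other genes of the cell cycle were taken in 8 lists of 159 genes, 155 of them tested. Of these 29 rose and 8 fell, where 10.3% of all genes tested were called higher and 18.7% lower, and their median log2 fold change was 0.41. Transcription factors and regulators of entry had the most calls, with 10 of 20 higher and 2 lower (median 0.71). E2f2, an activator of S phase genes, had the smallest p there, at 46.2 to 84.8 CPM in wild type and 124 to 227 CPM in Tnc-/- (1.33; edgeR, adjusted p = 0.0105), and Mastl, which restrains a phosphatase in mitosis, the lowest fold change (-1.33; adjusted p = 0.017). DNA replication genes had 7 of 27 higher and 1 lower (median 0.74), with Mcm2 of the replicative helicase at 1.03 (adjusted p = 0.0183). Their lowest fold change was that of Fen1, the flap nuclease, at -1.77 (adjusted p = 0.0738). The other spindle and motor genes had 4 of 22 higher and 0 lower (median 0.47), from Spag5, an astral spindle protein, at 1.17 (adjusted p = 0.0094) to Kif24 at -0.97 (adjusted p = 0.137).

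Condensin and cohesin genes had 2 of 16 higher and 1 lower (median 0.50); Stag1, a cohesin subunit, had both the smallest p and the lowest fold change (-1.05; edgeR, adjusted p = 0.0132). The other centromere and checkpoint genes had 0 of 26 higher and 2 lower (median 0.26), Cenpp at -1.40 (adjusted p = 0.0243) and Cenpu at -1.64 (adjusted p = 0.037). Cenpp and Cenpu were higher in wild-type libraries 2 and 3 than in the other 5 libraries. Cenpp was at 17.4, 66.2 and 49.5 CPM in wild type and at 15.04 to 18.9 CPM in Tnc-/-. The other cytokinesis genes had 1 of 11 higher, the kinase Pbk (1.03; adjusted p = 0.0484), and 0 lower (median 0.010). Subunits and partners of the anaphase-promoting complex had 2 of 17 higher and 2 lower (median 0.12). Fzr1, the activator Cdh1 that follows Cdc20, rose by 1.08 (adjusted p = 0.00837), and Anapc10 fell by 1.64 on the log2 scale (adjusted p = 0.0135). Brakes of the cell cycle had 3 of 16 higher and 0 lower (median 0.11), with Cdkn2d, a Cdk4 and Cdk6 inhibitor, at 1.08 (adjusted p = 0.00876) and Cdkn2a lowest at -1.56 (adjusted p = 0.17). Bub3, Wee1, Cdkn2b and Tk1 of these lists were listed at 0 in all 7 libraries, like Prc1.

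Many markers of erythroid cells and of granulocyte precursors and neutrophils were also called higher in Tnc-/-, where 10.3% of all genes tested were called higher and 18.7% lower. The lists hold haemoglobin genes and markers of mature neutrophils too, so their sums are not a measure of precursors alone. The erythroid precursor list had 11 of 17 tested genes higher and 0 lower, and summed to 10123, 5239 and 6428 CPM in wild type and to 28006, 16276, 16886 and 14357 CPM in Tnc-/-. The granulocyte precursor and neutrophil list had 12 of 17 higher and 0 lower, and summed to 6793, 3191 and 3590 CPM and to 12796, 7517, 10056 and 8905 CPM. Both lists were highest of all in Tnc-/- library 1, and highest within wild type in library 1, as the set level of the members was. This order was not particular to them. Within wild type, library 1 also had the highest sum in every other cell type list, and the B cell precursor sum was also highest of all in Tnc-/- library 1. Alas2 of the erythroid list was listed at 0 in all 7 libraries, and each granulocyte marker was detected. The part of these cells in the values of the members was not tested.

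Lists of other cells had fewer calls, beside 10.3% of all genes tested called higher and 18.7% lower. B cell precursor genes had 1 of 8 higher (229.9 to 269 CPM summed in wild type, 255 to 393 CPM in Tnc-/-; Rag1 and Rag2 at 3 counts or fewer in each library; Vpreb1 and Vpreb2 not matched). Macrophage genes had 0 of 11 in either direction (edgeR; 0 also at an unadjusted p under 0.05; Itgam listed at 0 in all 7 libraries), fibroblast and tendon genes 0 higher and 1 lower of 11, and satellite cell and myoblast genes 0 higher and 1 lower of 9. Fibroblast and tendon genes summed to 32693 to 51842 CPM in wild type and to 35423 to 61063 CPM in Tnc-/-. Skeletal muscle genes had 2 of 12 higher, with sums of 24408 to 34171 and 36351 to 54364 CPM. All 12 had a log2 fold change above 0 (median 0.65), and 7 had an unadjusted p under 0.05 (edgeR). In 8 of them every Tnc-/- library was higher than every wild-type library, where 17.7% of all genes tested did so. Within Tnc-/- the muscle sum was lowest in library 1, where the members were highest. Cartilage had 0 of 9 (edgeR; 1 at an unadjusted p under 0.05), osteoblast 1 of 8 higher and endothelial genes 1 higher and 2 lower of 8.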

How the data were processed

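Poly(A) RNA of whole shoulder joints was made into libraries with a NEBNext Ultra kit, per the labels' protocols. The deposited values are raw counts of reads per gene, 1 file per mouse. The submitters' processing notes name FastQC 0.11.9, HISAT2 2.2.1, HTSeq 2.0.2, DESeq2 1.38.3 and the build GRCm39; the annotation release and strand setting are not given in the sources used here. Rows that name no gene held 30.1 to 32.7% of the reads listed in the Tnc-/- files and were left out; the wild-type files listed none, and 0 columns were left unmapped. Library totals of 13464057 to 28191101 counts set the precision of low values.

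The 56854 identifiers common to all files were fitted with edgeR 4.0.16 in R 4.3.3: filterByExpr, TMM scaling, robust dispersions and the quasi-likelihood F test on genotype, with Benjamini-Hochberg adjustment over 17791 genes at 0.05. Each SE follows from the log2 fold change and its F statistic. Fits were tested on simulated data with the same spread for every gene and no difference in background between libraries. That test does not cover the spread seen among the wild-type libraries here. Promoters are from RefSeq (GRCm38.p6), and spans and exons from GENCODE M21 (GRCm38), which holds 91.4% of the identifiers and all 36 members; no coordinates of the 2 builds were mixed.

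Members, lists and alternatives were chosen with earlier results of these data known. Values are given per library for the 2 members of each role with the smallest p and the 1 with the largest, all members of roles of up to 3, and Mki67 and Top2a; in the other lists, the gene with the smallest p and that with the lowest fold change are named, of which 1 is not reported here. Alternatives were DESeq2 1.42.0, limma 3.58.1 voom, Bonferroni adjustment, other scalings and filters, each library left out, wild-type library 1 alone, the replicate number as a block and the log2 receptor sum as a covariate; other cell cycle lists held 8 groups and cell type lists 10. Same-numbered libraries did not deviate together (correlations of -0.03, 0.07 and -0.01), so no block was used.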

Additional observations from a re-analysis of the deposited data

Results flagged for a closer look

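The 4 Tnc-/- libraries were searched for a library far from the other 3 in 37 values: the level of each tested member, the set level and the library total. In 2 of them Tnc-/- library 1 lay apart, and chance gives about 1 in 20. Cdca8 was at 69.3 CPM against 37.0 to 42.2 CPM in the other 3, a gap to the nearest of 0.839 of the whole range, and Kif15 was at 40.7 CPM against 25.0 to 27.4 CPM, a gap of 0.849 of the range. Both pass the 95% critical value of Dixon's test for 4 samples. Cdca8 was among the 14 members called higher and Kif15 was not. The call of Cdca8 held in 1 of 7 fits that left out a library, that without wild-type library 1. This was also so for Mki67, Bub1b, Cenpf, Kif4, Tpx2 and Ube2c. The log2 fold change of Cdca8 was 0.87 without Tnc-/- library 1, beside 1.14 in all libraries.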

How the results depend on the processing

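In 20 alternatives the median log2 fold change of the members stayed above 0, from 0.28 with the receptor covariate to 1.13 without wild-type replicate 1, and among the fits that leave out a library the lowest was 0.51. The set level difference was 0.27 to 0.55 with a library left out. Against 14 members, 37 genes of the other cell cycle lists and 5159 of all genes called, DESeq2 called 9406 of all genes with Benjamini-Hochberg adjustment. With Bonferroni adjustment DESeq2 called 0 members (19 at an unadjusted p under 0.05), 1 list gene and 1943 of all genes, and edgeR 0 members (20 at an unadjusted p under 0.05), 0 list genes and 22 of all genes. Limma voom called 2 members (Ccnb2 and Cdc20), 7 list genes and 973 of all genes (3.97% higher). Members called were 7 when scaled to library totals, 9 by upper quartiles and 7 with TMM factors from genes of at most 10 kb; Melk, lower, was 1 of each, which leaves 6, 8 and 6 higher beside 5.35%, 7.58% and 4.46% of all genes. With a library left out, calls ran from 0 members, 5 list genes and 2229 of all genes (without wild-type replicate 3) to 28, 101 and 14113 (without wild-type replicate 1). With wild-type replicate 1 as the only wild-type library, edgeR called 0 members (8 at an unadjusted p under 0.05), 3 list genes and 825 of all genes, with the lone library assumed to vary like the Tnc-/- libraries. With the receptor covariate it called 0 members (2 at an unadjusted p under 0.05), 1 list gene and 443 of all genes. The replicate block, with numbers that gave no pairing, called 17 members and 1932 of all genes, and not every sample correlated best with its own number. The cause of these changes was not tested.

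The sign turned in at least 1 alternative for 11 of 35 members. Kif2c was at -0.13 with library totals, -0.20 with short-gene TMM and -0.15 to 0.21 with a library left out. Nusap1 was at -0.087, -0.15 and -0.13 to 0.35 in the same fits, -0.064 with wild-type replicate 1 alone and -0.12 with the covariate. With wild-type replicate 1 alone Melk was at 0.11, Ttk at 0.51 and Ect2 at 0.057, and with the covariate at 0.52, 0.84 and 0.30. The covariate also gave Ccnb1 -0.22, Nuf2 -0.16, Kif20a -0.14, Hmmr -0.14, Kif23 -0.023 and Aurka -0.0055. Of the other alternative values of the 26 members given in every library, 339 kept direction and side of the threshold, 145 kept direction and lost the call, and 18 kept direction and gained one. With 3 and 4 mice a difference below the spread between them is not detectable.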
